A study of Mus musculus with 6 samples.

Results

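The 35 genes described here are known from amacrine and horizontal cells, the inhibitory interneurons of the retina. They were taken by symbol from a fixed list, and each gene was read by the single-gene transcript cluster (the group of probes that covers one transcript) with the highest mean signal over all arrays. A cluster was found for 34 of the 35 genes, out of 19938 genes with a cluster of their own, and each of the 34 had exactly 1 such cluster; Bhlhe22 was not analysed here. Of the 34, 16 encode transcription factors of cell fate and 18 encode transmitter enzymes, transporters, neuropeptides, calcium buffers and other subtype proteins. Retinae came from newborn mice (P0) of the C57BL/6NTac background. The groups were 3 animals labelled Meg2 knockout, Meg2 being the tyrosine phosphatase encoded by Ptpn9, and 3 Meg2 wild-type animals, with both retinae of an animal combined for 1 array. Which part of Ptpn9 was deleted, and in which tissues, the sources used here do not state. Values are log2 signals, so a difference of 1 is a doubling.

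Horizontal and amacrine cells arise from progenitors that switch on Foxn4 and then Ptf1a, which together steer cells away from the photoreceptor and ganglion cell fates. Onecut1, Prox1 and Lhx1 act in horizontal cells, while Barhl2, Neurod-family factors and others set apart the many amacrine types, which release GABA or glycine and often a second transmitter or peptide. At birth in mice horizontal cells have been born, and amacrine cells are still being added. In whole tissue, fewer cells of a type and less RNA per cell cannot be told apart.

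The label of the tissue was checked against marker genes. Retinal factors were bright on every array, with mean log2 signals of 12.6 for Pax6, 12.8 for Lhx2, 11.1 for Crx and 11.6 for Rax. Ptpn9 read 9.31, 9.58 and 9.28 on the knockout arrays, against 10.05, 9.93 and 9.94 on the wild-type arrays, so every knockout array lay below every wild-type array. Its difference was -0.58 (SE 0.087), with an unadjusted p of 0.000108 and an adjusted p of 0.437 in limma. Ptpn9 itself thus did not pass correction, and signal remained on the knockout arrays. Both arrays numbered replicate 2 held the RNA of 1 animal each by their labels, yet carried female and male transcripts together: Xist read 12.54 on the knockout array and 12.54 on the wild-type array, and the Y-linked gene Uty 7.18 on the knockout array and 7.67 on the wild-type array. In replicate 1 Xist was high and Uty low in both genotypes (12.6 and 5.22 on the knockout array, 12.7 and 4.71 on the wild-type array), and in replicate 3 the reverse (6.26 and 9.53 on the knockout array, 6.52 and 9.34 on the wild-type array). Results are therefore also given without both replicate 2 arrays.

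No gene of the set passed correction between knockout and wild type. In limma, 0 of 34 genes and 0 of all 23410 tested clusters (0%) had an adjusted p under 0.05, and the adjusted p was 0.9995 for each of the 34. At an unadjusted p under 0.05, 2 of the 34 (5.88%) were called, against 3.43% of all tested clusters. Both were higher in the knockout (1.69% of all tested clusters were) and 0 were lower (1.74% were). They were Crhbp and Slc5a7. The Crhbp difference was known when the set was chosen, and Crhbp also counts among the genes without overlap below. The shares of the set are therefore description and not a test. Arrays of the genotypes did not overlap in 4 of the 34 (11.8%), against 8.43% of all tested clusters: Crhbp, Slc5a7 and Gad1 were higher on every knockout array (4.08% of all clusters were) and Neurod6 was lower (4.35% were). With the replicate number as a block in limma, 3 of the 34 had an unadjusted p under 0.05, against 8.81% of all tested clusters, and 0 passed adjustment, against 0.00427%. The count of genes without overlap depended on which arrays were used. It was 9 without knockout replicate 1 (22% of all clusters), 12 without knockout replicate 2 (20.3%) and 6 without knockout replicate 3 (17.3%). Leaving out wild-type replicates 1, 2 and 3 in turn gave 4 (16.7% of all clusters), 5 (16.2%) and 8 (15.8%). Without both replicate 2 arrays it was 13 (29% of all clusters).

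The median difference of the 34 genes was 0.013 (knockout minus wild type), beside 0.0012 over all tested clusters, and 20 of the 34 (58.8%) lay above 0, where 50.7% of all tested clusters did. The median size of the difference, whatever its sign, was 0.061 for the set and 0.048 for all tested clusters. For the 32 genes other than Crhbp and Slc5a7, differences ran from -0.12 (Calb1) to 0.11 (Gad1), and every 95% interval held 0. The widest reach of these intervals was -0.34 for Calb1 and 0.32 for Tfap2c, so changes of up to these sizes remain possible.

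**Figure D1:**
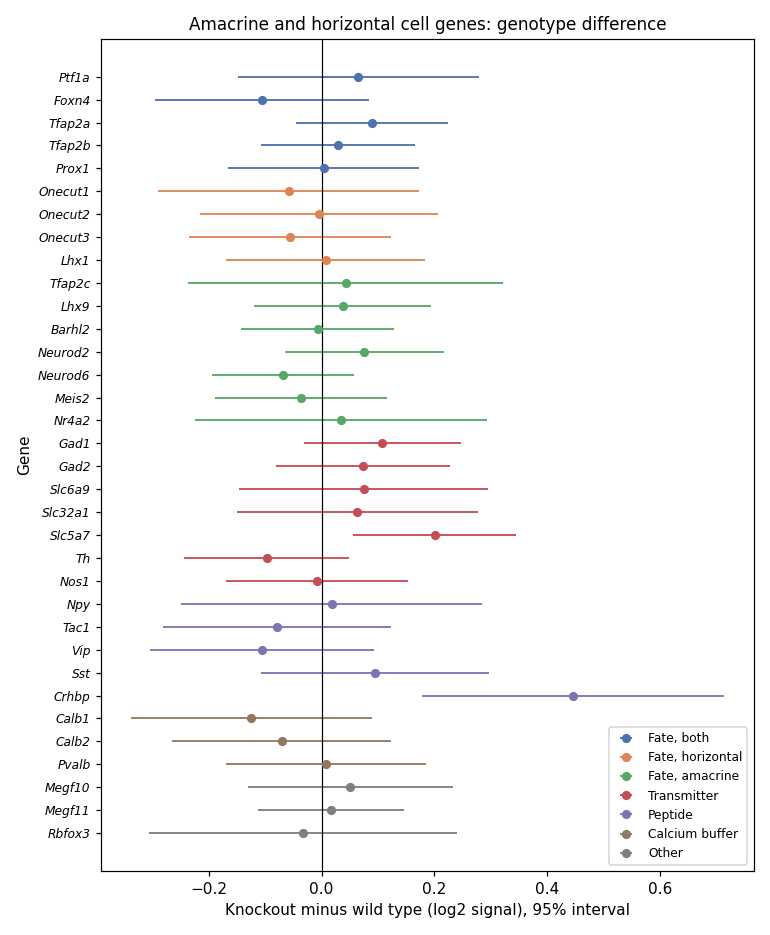
Difference in log2 signal, knockout minus wild type, for the 34 genes, grouped by role. Points are estimates and bars 95% intervals from limma; the intervals of Crhbp and Slc5a7 lie above 0, and those of the other 32 genes hold 0.

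Among the factors shared by both cell classes, none had an unadjusted p under 0.05 in limma, and arrays of the genotypes overlapped for each. Ptf1a, the basic helix-loop-helix factor required for horizontal and amacrine fates, averaged 9.24 ± 0.18 in knockout retinae and 9.17 ± 0.092 in wild-type retinae (SD, n = 3 each). Foxn4, the forkhead factor upstream of Ptf1a, averaged 11.27 ± 0.16 in knockout retinae and 11.38 ± 0.038 in wild-type retinae (SD, n = 3 each). Its difference of -0.11 (SE 0.084) was the lowest of the fate factors, and the knockout replicate 2 array stood above all wild-type arrays. The AP-2 gene Tfap2a, needed with its relative Tfap2b for horizontal cells and for the differentiation of amacrine cells, read 11.84, 11.78 and 11.90 in the knockout, against 11.75, 11.72 and 11.79 in the wild type. These values overlapped narrowly, with only wild-type replicate 3 above the lowest knockout array, and the difference was 0.089 (SE 0.060; limma, unadjusted p = 0.169). Tfap2b read 12.21, 12.14 and 12.29 in the knockout, against 12.19, 12.17 and 12.19 in the wild type, a difference of 0.030 (SE 0.060). The wild-type arrays lay within the range of the knockout arrays. Prox1, a homeodomain factor of horizontal cells and some amacrine cells, differed by 0.0042 (SE 0.075).

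The 4 factors that lean to horizontal cells also overlapped between genotypes, with differences from -0.058 to 0.0075. Onecut1, which directs horizontal cell genesis and is also active in ganglion cells, read 9.69, 10.003 and 9.69 in the knockout, against 9.72, 9.98 and 9.85 in the wild type. The replicate 2 array was the highest in both genotypes, and the genotype difference was -0.058 (SE 0.10). Onecut2, its close relative, read 9.60, 9.89 and 9.65 in the knockout, against 9.65, 9.86 and 9.64 in the wild type. Replicate 2 again stood out, by 0.24 over the mean of the other arrays, while the genotype difference was -0.0048 (SE 0.093). Onecut3 differed by -0.055 (SE 0.079), and Lhx1, the LIM homeodomain factor that positions horizontal cells in their layer, by 0.0075 (SE 0.078).

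The amacrine-leaning factors lay within -0.068 and 0.076. Meis2, a homeodomain factor of GABAergic amacrine cells, read 12.84, 12.71 and 12.79 in the knockout, against 12.81, 12.73 and 12.90 in the wild type. The ranges overlapped, and the difference was -0.036 (SE 0.067). Barhl2, a homeodomain factor of amacrine and ganglion cells, read 11.79, 11.89 and 11.79 in the knockout, against 11.79, 11.87 and 11.83 in the wild type. The ranges overlapped, and its genotype difference was -0.0069 (SE 0.060). Neurod6, which marks an amacrine type that uses neither GABA nor glycine, read 4.37, 4.35 and 4.39 in the knockout, against 4.47, 4.40 and 4.44 in the wild type. All knockout arrays were lower, by -0.068 on average (SE 0.055; limma, unadjusted p = 0.248). Its signal was below 7.18, the 95th percentile of 1035 olfactory receptor clusters, a family with little transcription outside the nose that serves here as a guide to dim signal. The other amacrine factors differed by 0.043 (SE 0.12) for the AP-2 gene Tfap2c, 0.037 (SE 0.069) for Lhx9, 0.076 (SE 0.062) for Neurod2 and 0.035 (SE 0.11) for the orphan nuclear receptor gene Nr4a2.

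Of the 7 transmitter genes, the choline transporter gene Slc5a7 differed between genotypes before correction. Slc5a7 supplies choline for acetylcholine synthesis and marks starburst amacrine cells, the cholinergic neurons of the retina. It read 7.15, 7.23 and 7.26 in the knockout, against 7.09, 7.01 and 6.94 in the wild type, so no arrays overlapped. Signal was 1.15-fold that of wild type (log2 difference 0.20, SE 0.064; limma, unadjusted p = 0.0123 and adjusted p = 0.9995). Within replicate numbers the differences were 0.065, 0.22 and 0.32. The cluster was dim, with a mean of 7.11 that lay under the olfactory receptor percentile. Without wild-type replicate 3 its unadjusted p in limma was 0.0538, and without both replicate 2 arrays 0.0676. Of the other cholinergic genes, Chat, which makes acetylcholine, differed by -0.0060 (SE 0.054). Slc18a3, which loads it into vesicles, differed by 0.053 (SE 0.10).

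Of the genes of GABA and glycine signalling none passed the test, and all 4 had positive differences. Gad1, one of the enzymes that make GABA, read 10.07, 10.04 and 10.18 in the knockout, against 9.95, 10.03 and 9.98 in the wild type. The groups were separated by 0.018 between knockout and wild-type replicate 2, and the difference was 0.11 (SE 0.061; limma, unadjusted p = 0.113). Gad2, the other enzyme, read 10.89, 10.9997 and 10.90 in the knockout, against 10.85, 10.95 and 10.76 in the wild type. Here the ranges overlapped, although the knockout array was higher within each replicate number, with a mean difference of 0.073 (SE 0.068). Slc32a1, the vesicular transporter of GABA and glycine, differed by 0.064 (SE 0.094), and its knockout replicate 3 array (9.32) stood above the other arrays (8.97 to 9.07). Slc6a9, the glycine transporter of glycinergic amacrine cells, read 11.74, 11.48 and 11.87 in the knockout, against 11.64, 11.55 and 11.67 in the wild type. The knockout arrays enclosed the wild-type arrays, and the difference was 0.075 (SE 0.097). Tyrosine hydroxylase (Th), the marker of dopaminergic amacrine cells, differed by -0.097 (SE 0.064), and the nitric oxide synthase gene Nos1 by -0.0078 (SE 0.071).

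Crhbp had the largest difference of the set. It encodes a secreted protein that binds corticotropin-releasing hormone and urocortin. It read 9.11, 9.48 and 9.28 in the knockout, against 8.70, 9.08 and 8.76 in the wild type. Every knockout array was above every wild-type array, although knockout replicate 1 and wild-type replicate 2 lay close together. Signal averaged 9.29 ± 0.18 in knockout retinae and 8.84 ± 0.20 in wild-type retinae (SD, n = 3 each), which is 1.36-fold (log2 difference 0.45, SE 0.12, 95% interval 0.18 to 0.71; limma, unadjusted p = 0.00454 and adjusted p = 0.9995). Within replicate numbers the knockout was higher by 0.41, 0.40 and 0.52. Without both replicate 2 arrays the difference was 0.47. It ranked 58 among the 23410 clusters by p, and that difference was known when the set was chosen.

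**Figure D2:**
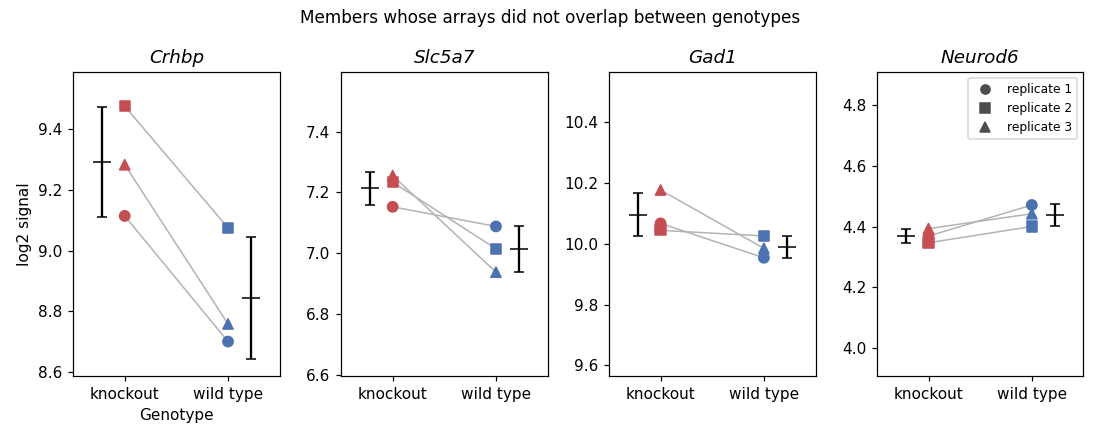
Log2 signal of the 4 genes whose arrays did not overlap between genotypes, with knockout left and wild type right in each panel. Marker shape gives the replicate number, grey lines join arrays of the same number, black bars are means with SD (n = 3), and all panels span the same height. Crhbp shows the largest difference between the group means.

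The regions around the annotated starts of the pair with an unadjusted p under 0.05 are shown, since these are the genes on which a difference between genotypes would rest. Each runs from 250 bases before to 50 bases after the start, from RefSeq on GRCm38.p6, on the minus strand and 5′ to 3′. Capitals mark the letters CANNTG (the E-box that basic helix-loop-helix factors such as Ptf1a can bind) and TATAAA (the TATA box), both sought on both strands. Crhbp lies at chr13:95444782-95445081 and Slc5a7 at chr17:54298985-54299284.
Crhbp: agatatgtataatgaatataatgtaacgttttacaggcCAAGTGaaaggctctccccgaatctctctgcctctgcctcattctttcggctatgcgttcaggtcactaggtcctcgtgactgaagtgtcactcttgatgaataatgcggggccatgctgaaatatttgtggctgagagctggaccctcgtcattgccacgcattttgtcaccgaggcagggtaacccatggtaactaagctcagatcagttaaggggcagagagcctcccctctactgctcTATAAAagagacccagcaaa
Slc5a7: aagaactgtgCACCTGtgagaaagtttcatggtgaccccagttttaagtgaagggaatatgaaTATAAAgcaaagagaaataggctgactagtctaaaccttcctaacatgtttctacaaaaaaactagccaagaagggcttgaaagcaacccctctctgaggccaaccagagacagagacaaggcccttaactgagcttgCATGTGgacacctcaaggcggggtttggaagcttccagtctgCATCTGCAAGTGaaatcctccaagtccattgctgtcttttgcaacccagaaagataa
The Crhbp window held 1 E-box and 1 TATA box, the latter after the annotated start, and the Slc5a7 window 4 E-boxes, of which 2 adjoin, and 1 TATA box. Of all 32851 such windows, 72.3% held an E-box and 13.6% a TATA box. Windows were found for 27 of the 34 genes, and 19 of these held an E-box and 7 a TATA box. A gene was counted if any of its windows held the letters, while the percentages of all windows count single windows. The counts and the percentages are therefore not directly comparable. The AP-2 letters GCCNNNGGC, sought on both strands, were in neither window, and stood in 4 of the 27 genes (Gad2, Nr4a2, Ptf1a and Pvalb) and in 16.6% of all windows.

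The other peptide genes did not separate the genotypes. Neuropeptide Y (Npy) read 10.89, 10.43 and 10.70 in the knockout, against 10.80, 10.54 and 10.63 in the wild type. The arrays numbered 2 were lowest and those numbered 1 highest in both genotypes, and the difference was 0.018 (SE 0.12). Somatostatin (Sst) differed by 0.095 (SE 0.089), and by nearly the same amount in each replicate number, at 0.095, 0.094 and 0.095. Tac1, the precursor gene of substance P, differed by -0.079 (SE 0.089). Vip, the vasoactive intestinal peptide gene, differed by -0.11 (SE 0.087), and its signal of 5.86 lay within the dim range.

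Calcium buffers label horizontal cells and several amacrine types in the mature retina. Calbindin (Calb1) read 6.88, 7.18 and 7.09 in the knockout, against 7.05, 7.30 and 7.17 in the wild type. The groups overlapped, but within each replicate number the knockout array was lower. The difference was -0.12 (SE 0.094; limma, unadjusted p = 0.219). With the replicate number as a block its unadjusted p in limma was 0.0361 and its adjusted p 0.545. Its mean of 7.11 was within the dim range. Calretinin (Calb2), present in amacrine and ganglion cells, read 12.11, 12.33 and 11.99 in the knockout, against 12.20, 12.24 and 12.19 in the wild type. The knockout arrays spread to both sides of the wild-type arrays, and the difference was -0.071 (SE 0.086). Parvalbumin (Pvalb), at 6.95 also in the dim range, differed by 0.0083 (SE 0.078).

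Megf10 and Megf11 encode receptors that space starburst amacrine and horizontal cells into regular mosaics in mice. Megf10 read 10.45, 10.64 and 10.62 in the knockout, against 10.39, 10.58 and 10.60 in the wild type. Knockout arrays were higher within each replicate number, but the ranges overlapped and the difference was 0.051 (SE 0.080). Megf11 differed by 0.017 (SE 0.057). Rbfox3, the gene of the neuronal splicing factor NeuN, read 9.74, 10.18 and 9.85 in the knockout, against 9.84, 10.13 and 9.90 in the wild type. Replicate 2 was highest in both genotypes, and the genotype difference was -0.033 (SE 0.12).

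Fate factors and subtype genes were set side by side. The median difference was 0.0058 for the 16 fate factors, of which 9 lay above 0, and 0.017 for the 18 transmitter and subtype genes, of which 11 did. The 17 amacrine-leaning genes had a median of 0.018, the 4 horizontal-leaning genes -0.030 and the 11 shared genes 0.051. Pvalb and Rbfox3 were placed in none of these classes. All 4 horizontal-leaning genes were fate factors. The amacrine-leaning genes also held subtype genes, among them Crhbp and Slc5a7, so these classes differ in role as well as in cell type. Each array's mean deviation from the gene means stood at 0.035, -0.029 and 0.043 in the knockout for the amacrine-leaning genes, against -0.0051, -0.022 and -0.022 in the wild type. For the horizontal-leaning genes it stood at -0.049, 0.037 and -0.030 in the knockout, against -0.020, 0.072 and -0.011 in the wild type. Arrays of the genotypes overlapped in both classes. The amacrine median minus the horizontal median was 0.048, or -0.035 without knockout replicate 1. These medians rest on genes chosen with earlier results known, so they were not tested.

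**Figure D3:**
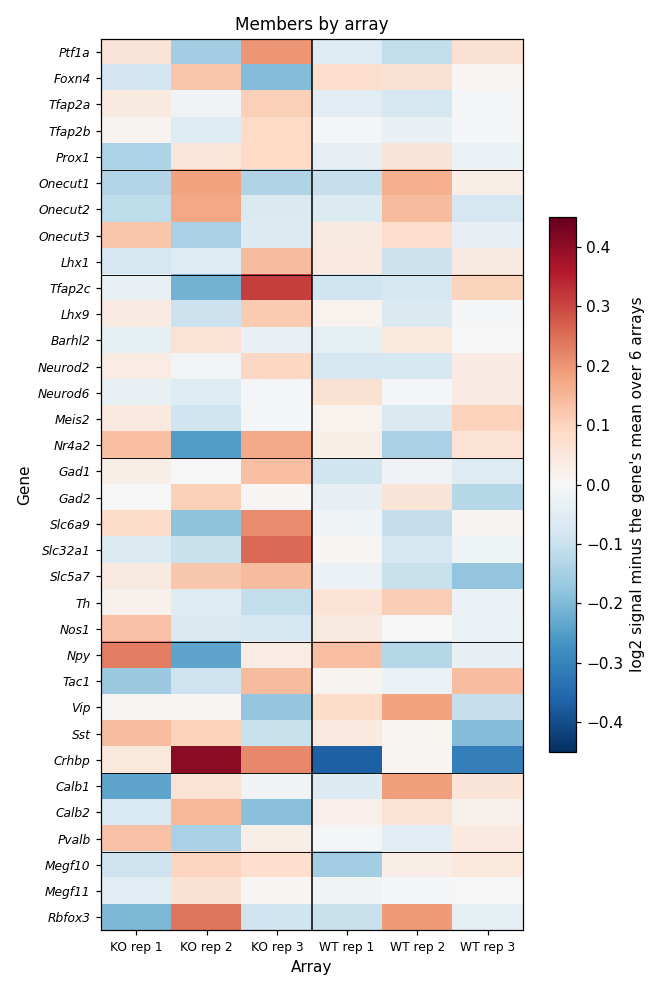
Log2 signal of each of the 34 genes on each array, minus the gene's mean over the 6 arrays, with knockout arrays left of the line and wild-type arrays right. Genes run by role, from shared, horizontal and amacrine fate factors to transmitter, peptide, calcium buffer and other genes; Crhbp stands out by genotype, while Onecut1, Onecut2 and Rbfox3 are highest in replicate 2 of both genotypes.

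Most of the variation in these genes followed the replicate number rather than the genotype. The sum of squares of each gene over the 6 arrays was divided into genotype, replicate number and remainder. With 3 replicate numbers and 2 genotypes, the share of replicate number tends to be the larger even without an effect. The shares are therefore best read beside those of all tested clusters. Replicate number held the largest share in 28 of the 34 genes (82.4%), against 65.8% of all tested clusters. Its median share was 69.6% for the set and 58.1% for all tested clusters, and the median share of genotype was 8.23% for the set and 10.5% for all tested clusters. Replicate number took 97.6% in Onecut2, 95.2% in Rbfox3 and 92.3% in Barhl2. Genotype held the largest share in 5 of the 34 (14.7%), against 13.7% of all tested clusters. These were Slc5a7 (77.8%), Crhbp (67.1%), Neurod6 (65.9%), Gad1 (57.9%) and Tfap2a (53.9%).

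**Figure D4:**
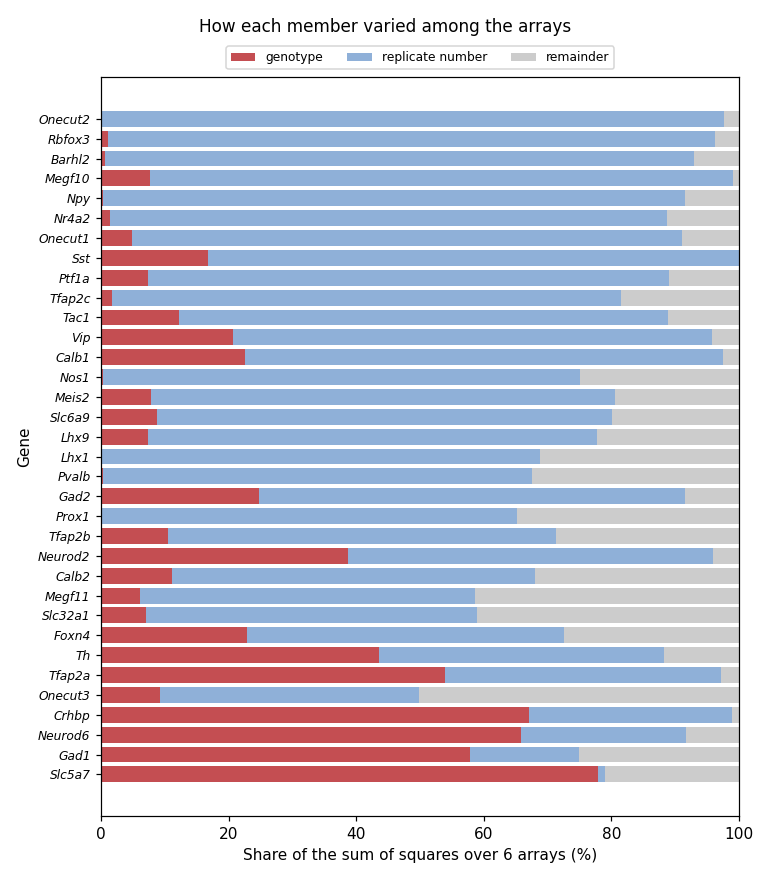
Share of each gene's sum of squares over the 6 arrays (%) that went with genotype, replicate number and the remainder. Genes are ordered by the share of replicate number, which runs from 97.6% in Onecut2 at the top to 1.16% in Slc5a7 at the bottom.

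The replicate 2 arrays of both genotypes stood at the end of their group in 20 of the 34 genes (58.8%), against 36.3% of all tested clusters. For replicates 1 and 3 the counts were 10 (29.4%, against 37.9% of all tested clusters) and 14 (41.2%, against 31.2%). In replicate 2, 9 genes were highest in both genotypes (16.7% of all tested clusters were): Onecut1, Onecut2, Barhl2, Calb1, Calb2, Gad2, Vip, Rbfox3 and Crhbp. The 11 that were lowest in both (19.6% of all tested clusters were) were Ptf1a, Tfap2a, Tfap2b, Lhx9, Neurod6, Meis2, Nr4a2, Pvalb, Slc6a9, Slc32a1 and Npy. Over both genotypes, replicate 2 lay above the mean of the other arrays by 0.32 in Rbfox3, 0.31 in Crhbp and 0.25 in Onecut1, and below it by -0.30 in Nr4a2, -0.27 in Npy and -0.22 in Slc6a9. Markers of other cells moved with these arrays. Of 10 ganglion cell markers 7 were highest in replicate 2 of both genotypes and 0 lowest, and of 8 photoreceptor markers 0 were highest and 4 lowest. In replicate 3 of both genotypes, 6 of these 8 photoreceptor markers were highest (18.6% of all tested clusters were). Also lowest in replicate 2 were 8 of 19 lens, 4 of 10 endothelial and 4 of 9 microglial markers, while 1, 0 and 0 were highest. The mean deviation of the ganglion markers was 0.13 in knockout replicate 2 and 0.067 in wild-type replicate 2, against a range of -0.099 to 0.039 on the other arrays. The part of these cells, and of the mixed Xist and Y-linked signal, in the pattern was not tested.

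Other genes of amacrine and horizontal cells, from a list of 30, gave no call without the replicate block. Of 28 with a cluster, 0 had an unadjusted p under 0.05 in limma, against 3.43% of all tested clusters, and the median difference was 0.018. In the blocked fit 3 did, against 8.81% of all tested clusters. Neurod1, a helix-loop-helix factor gene of amacrine cells and photoreceptors, differed by 0.14 (limma with the block, unadjusted p = 0.0360, adjusted p = 0.545). Sall3, a zinc finger factor gene of horizontal cells, differed by 0.14 (limma with the block, unadjusted p = 0.0362, adjusted p = 0.545). Slc17a8 differed by -0.12 (limma with the block, unadjusted p = 0.0480, adjusted p = 0.563). Arrays did not overlap in 3 of the 28 (10.7%, against 8.43% of all tested clusters). These were Slc17a8, a vesicular glutamate transporter gene of some amacrine cells, which was lower on every knockout array (difference -0.12, SE 0.058), the cholecystokinin gene Cck, which was higher (0.096, SE 0.063) and dim, and Rorb, a nuclear receptor gene that acts in several retinal types, which was higher (0.069, SE 0.054).

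Marker lists of other cells are given beside these results; over all tested clusters, 50.7% lay above 0 and 1.69% were higher at an unadjusted p under 0.05 in limma. Of 10 endothelial markers 9 were higher in the knockout and 3 had an unadjusted p under 0.05 in limma, and their mean log2 signal per array ran from 7.89 to 8.23 on knockout arrays and from 7.80 to 7.95 on wild-type arrays. Of 19 lens markers 17 were higher in the knockout and 1 was called, with array means of 7.30 to 7.57 on knockout arrays and 7.22 to 7.31 on wild-type arrays. Of 9 microglial markers 8 were higher and 3 were called (C1qa, C1qb and C1qc), with array means of 7.86 to 8.14 on knockout arrays and 7.80 to 7.92 on wild-type arrays. Of 7 pigment epithelium markers 6 were higher and 1 was called, with array means of 7.09 to 7.46 on knockout arrays and 7.06 to 7.23 on wild-type arrays. Of 10 ganglion cell markers 3 were higher and 0 were called, with array means of 10.77 to 11.001 on knockout arrays and 10.83 to 10.94 on wild-type arrays. For photoreceptor markers 6 of 8 were higher and 0 called, with array means of 10.52 to 10.85 (knockout) and 10.58 to 10.73 (wild type). For progenitor markers 5 of 9 were higher and 0 called, with array means of 12.20 to 12.31 (knockout) and 12.21 to 12.25 (wild type). The table lists no marker at 0, since the log2 signals have no true zero. In a fit with lens signal as covariate the Crhbp difference was 0.55 and that of Slc5a7 0.15 (limma, unadjusted p = 0.0111 and 0.128).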

How the data were processed

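Gene expression was measured in 6 samples on Affymetrix Mouse Gene 1.0 ST arrays. The authors deposited log2 signals of transcript clusters. Affymetrix Expression Console, RMA and Transcriptome Analysis Console were used, per the submitters' processing notes. RMA brings all arrays to 1 distribution and thereby removes a shift shared by most transcripts. The sources used here give neither versions nor scan dates. The platform annotation named 1 gene for 21789 of 35557 clusters, several for 1621 and none for 12147. The 23410 clusters with a gene were tested with limma 3.58.1 in R 4.3.3 (lmFit and eBayes, two-sided, Benjamini-Hochberg adjustment over these clusters). Differences are knockout minus wild type and SEs are moderated. No filter on dim signal was applied; 32 of the 34 genes would pass one at the 25th percentile (6.85), and 5 lie at or below the olfactory receptor percentile of 7.18. Exact permutation of 6 arrays allows no p under 0.1 and was not used. The labels call the samples biological replicates, 1 animal each, and the number of arrays limits the precision.

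The members and all lists were chosen with earlier results of these data known. Genes given in every sample had no overlap between genotypes, an unadjusted p under 0.05, or one of the 2 highest signals in their role. Other values were picked after they were seen. Replicate numbers come from the sample titles, and deviations of arrays of the same number correlated at 0.476, 0.485 and 0.455, above the 0.1 taken as pairing, so the replicate block was run. Alternatives were that block, median centring, cyclic loess, a variance trend, array weights, a signal filter, all clusters, a mean over clusters, a lens covariate, each array left out and replicate 2 left out. The limma script was tested on simulated data. Tables and figures used Python 3.11.15, pandas 2.3.3 and matplotlib 3.10.9.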

Additional observations from a re-analysis of the deposited data

How the results depend on the processing

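In every alternative run, 0 of the 34 genes had an adjusted p under 0.05 in limma. At an unadjusted p under 0.05, the number of genes higher in the knockout was 2 (1.69% of all tested clusters in the main fit). It was 1 (Crhbp) with the lens covariate (1.29% of all clusters) and without both replicate 2 arrays (1.55%). With single arrays left out it ran from 1 to 3 (1.24 to 2.76% of all clusters). The number lower was 0 (1.74% in the main fit), and 1 (Calb1) with the replicate block (4.36%). It ran from 0 to 2 with single arrays left out (1.34 to 2.85% of all clusters). The count of genes whose arrays did not overlap was 4 (8.43% of all tested clusters). It was 5 with median centring (8.53%), 3 with cyclic loess (10.2%) and 3 with the signal filter (8.23%). Without both replicate 2 arrays it was 13, where 29% of all clusters did not overlap. With single arrays left out it ran from 4 to 12, where 15.8 to 22% of all clusters did not overlap. The Crhbp difference lay between 0.35 and 0.56 over all alternatives, with unadjusted p from 5.89e-05 to 0.0197 and adjusted p from 0.197 to 0.99989 in limma; the lowest of each came with the replicate block, whose SE was 0.050 and under which Crhbp ranked 7 by p. The Slc5a7 difference lay between 0.15 and 0.24, with unadjusted p from 0.00903 to 0.128 in limma. Among the 34 genes, the replicate block changed no call apart from that of Calb1. Among the other listed genes it added Neurod1, Sall3 and Slc17a8. Calls at an unadjusted p under 0.05 in the blocked fit were 6 lens, 6 endothelial, 5 microglial and 2 pigment epithelium markers. They also held 2 of 8 photoreceptor, 1 of 9 progenitor and 0 of 10 ganglion cell markers, where 8.81% of all tested clusters were called. The median difference of the set was -0.022 with the lens covariate and 0.038 without both replicate 2 arrays, and ran from -0.0063 to 0.038 with single arrays left out. That of the fate factors was -0.054 with the lens covariate and ran from -0.026 to 0.030 with single arrays left out. That of the subtype genes was 0.053 without both replicate 2 arrays and ran from 0.0055 to 0.046 with single arrays left out. The fate factor median minus the subtype median was -0.012, or -0.082 with the lens covariate and 0.011 with array weights, and ran from -0.031 to -0.0025 with single arrays left out. The amacrine median minus the horizontal median was -0.076 with the lens covariate and ran from -0.035 to 0.11 with single arrays left out. The lowest unadjusted p over the alternatives in limma was 0.0360 for Slc6a9 and 0.0431 for Calb2. Small differences of genes with no unadjusted p under 0.05 in the main fit, these included, changed sign. With the lens covariate these were Tfap2b (-0.047), Onecut1 (0.11), Onecut2 (0.11), Barhl2 (0.047), Calb2 (0.092), Slc6a9 (-0.12), Npy (-0.11) and Rbfox3 (0.12), and with cyclic loess Onecut2 (0.0057). With single arrays left out, ranges that crossed 0 were -0.0080 to 0.066 for Tfap2b, -0.16 to 0.0076 for Onecut1, -0.092 to 0.066 for Onecut2, -0.041 to 0.015 for Barhl2, -0.077 to 0.0063 for Meis2, -0.16 to 0.0059 for Calb2, -0.012 to 0.18 for Slc6a9, -0.093 to 0.14 for Npy, -0.014 to 0.11 for Megf10 and -0.16 to 0.059 for Rbfox3. The cause was not tested. The mean over clusters changed nothing, since each gene had 1 cluster, and the signal filter left out Neurod6 and Vip. The 3 arrays per genotype, a mixed replicate 2 and dim clusters for 5 genes limit what could be detected.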
